A study of Mus musculus with 12 samples.

Results

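The collagen and laminin genes of the mouse retina were followed through ageing and through raised intraocular pressure (IOP). Genes were taken by symbol, as Col, a number, a and a number for collagens and as Lama, Lamb or Lamc with a number for laminins, which gave 55 of the 25124 genes listed in each table, 44 collagens and 11 laminins. Poly(A) RNA-seq was made from bulk retina of wild-type C57BL/6J mice in 12 libraries, 2 in each of 6 groups. In the first series mice 3 or 18 months old had 1 eye held at 30 mmHg for 1 h, and retinas were taken 2 days later from that eye (3mo IOP, 18mo IOP) and from the untreated eye of the other side (3mo control, 18mo control). In the second series, 4xIOP retinas and their contralateral 4xIOP control retinas came from mice given 4 such elevations, 1 every 2 weeks from the age of 3 months, and were taken 2 days after the last. The control eyes are thus from treated animals, and eyes of untreated animals are not among these groups.

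Collagens are built of 3 chains wound into a helix, and laminins of an alpha, a beta and a gamma chain. Fibrillar collagens form the load-bearing cables of connective tissue, whereas collagen IV and the laminins form the paired networks of basement membranes, which in the eye lie under the retinal pigment epithelium (RPE), around the vessels and along the inner limiting membrane. The other members are fibril-associated collagens (FACIT), microfibrillar collagen VI, the short-chain network collagens of Descemet's and Bruch's membranes, and collagens held in the cell membrane. By this division the 55 genes were 11 fibrillar chains, 6 collagen IV chains, 11 laminin chains, 3 further chains of the basement membrane zone (Col7a1, Col15a1 and Col18a1), 6 collagen VI chains, 3 short-chain collagens, 9 FACIT chains, 4 transmembrane chains and 2 others.

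The 6 collagen IV genes lie in 3 head-to-head pairs, so that each pair starts from a common stretch of DNA, and the pairs are shown because the 2 members of a pair were not always called together. Col4a1 (chr8:11198423-11312826, minus strand) and Col4a2 (chr8:11312805-11449287, plus strand) share 22 transcribed bases (mm10). Col4a4 (chr1:82450723-82586849, minus strand) and Col4a3 (chr1:82586921-82722059, plus strand) are 71 bases apart. Col4a6 (chrX:141165403-141474076, minus strand) and Col4a5 (chrX:141475419-141689235, plus strand) are 1342 bases apart. The first sequence below is written on the plus strand and the second on the minus strand, both from the RefSeq promoter windows of GRCm38.p6, the assembly of mm10.
Col4a1 and Col4a2, chr8:11312805-11312826: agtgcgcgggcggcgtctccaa
Col4a4 and Col4a3, chr1:82586850-82586920: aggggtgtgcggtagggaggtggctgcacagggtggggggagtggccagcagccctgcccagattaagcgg

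The 250 bases before the start site are given for 3 further genes: the pair of short-chain chains called lower with age, Col8a1 (chr16:57624256-57754737, minus strand) and Col8a2 (chr4:126286794-126314330, plus strand), and the laminin beta chain Lamb2 (chr9:108479862-108490530, plus strand), a laminin gene called higher with age in both eye types under every setting tried. Capitals mark the GC box letters GGGCGG or, on the other strand, CCGCCC. Col8a1 and Col8a2 held 4 each, with the last pair in Col8a2 overlapping, and Lamb2 held none.
Col8a1, chr16:57754738-57754987, minus strand: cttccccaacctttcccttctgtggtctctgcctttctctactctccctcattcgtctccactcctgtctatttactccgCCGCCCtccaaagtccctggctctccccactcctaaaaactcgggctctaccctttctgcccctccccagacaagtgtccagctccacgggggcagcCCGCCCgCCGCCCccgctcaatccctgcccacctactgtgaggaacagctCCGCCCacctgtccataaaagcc
Col8a2, chr4:126286544-126286793, plus strand: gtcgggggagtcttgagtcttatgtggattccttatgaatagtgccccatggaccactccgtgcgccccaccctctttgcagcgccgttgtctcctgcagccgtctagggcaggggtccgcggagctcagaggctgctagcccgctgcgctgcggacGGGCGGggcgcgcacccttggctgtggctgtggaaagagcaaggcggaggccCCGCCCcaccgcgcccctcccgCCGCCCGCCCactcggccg
Lamb2, chr9:108479612-108479861, plus strand: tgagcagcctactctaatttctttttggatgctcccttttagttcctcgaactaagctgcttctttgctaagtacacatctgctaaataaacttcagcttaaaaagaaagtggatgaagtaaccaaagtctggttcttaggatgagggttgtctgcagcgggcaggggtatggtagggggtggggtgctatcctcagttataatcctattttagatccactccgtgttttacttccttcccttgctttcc
RefSeq windows were at hand for 40 of the 55 genes, as 44 windows. The GC box letters were in 24 of these 44 windows, or 54.5%, against 32.7% of all 32851 promoter windows. CCAAT or ATTGG was in 14 (31.8%, against 33.8% of all) and TGANTCA, which reads alike on both strands, in 1 (2.27%, against 6.75%). These are matches of letters only.

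The values were FPKM, reads per kilobase of transcript scaled to library depth. Levels of genes of unlike length compare only roughly, because libraries differed in length representation, as given below. Depth was between 39766231 and 59455059 tags a library, at which 3 reads on a transcript of 5000 bases come to between 0.0101 and 0.0151 FPKM; such limits cover counting error only. Of the 55 genes, 48 were above 3 reads in every library. The 7 others were Col6a3, Col6a5, Col6a6, Col10a1, Col14a1, Col28a1 and Lamb3. Levels differed widely between chains (heatmap of the members by library). Col9a1, a FACIT chain that coats type II collagen fibrils, was between 3.96 and 18.5 FPKM over the 12 libraries. Col23a1, a transmembrane collagen, was between 3.38 and 19.4 FPKM, and Col2a1, the main fibrillar chain of cartilage and vitreous, between 2.03 and 14.7 FPKM. Col1a1, a chain of the type I collagen of skin, bone and sclera, was between 0.08 and 1.49 FPKM. Retina was the tissue labelled, and the rod transducin alpha subunit Gnat1 was between 1031 and 5669 FPKM in all 12 libraries.

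**Figure D1:**
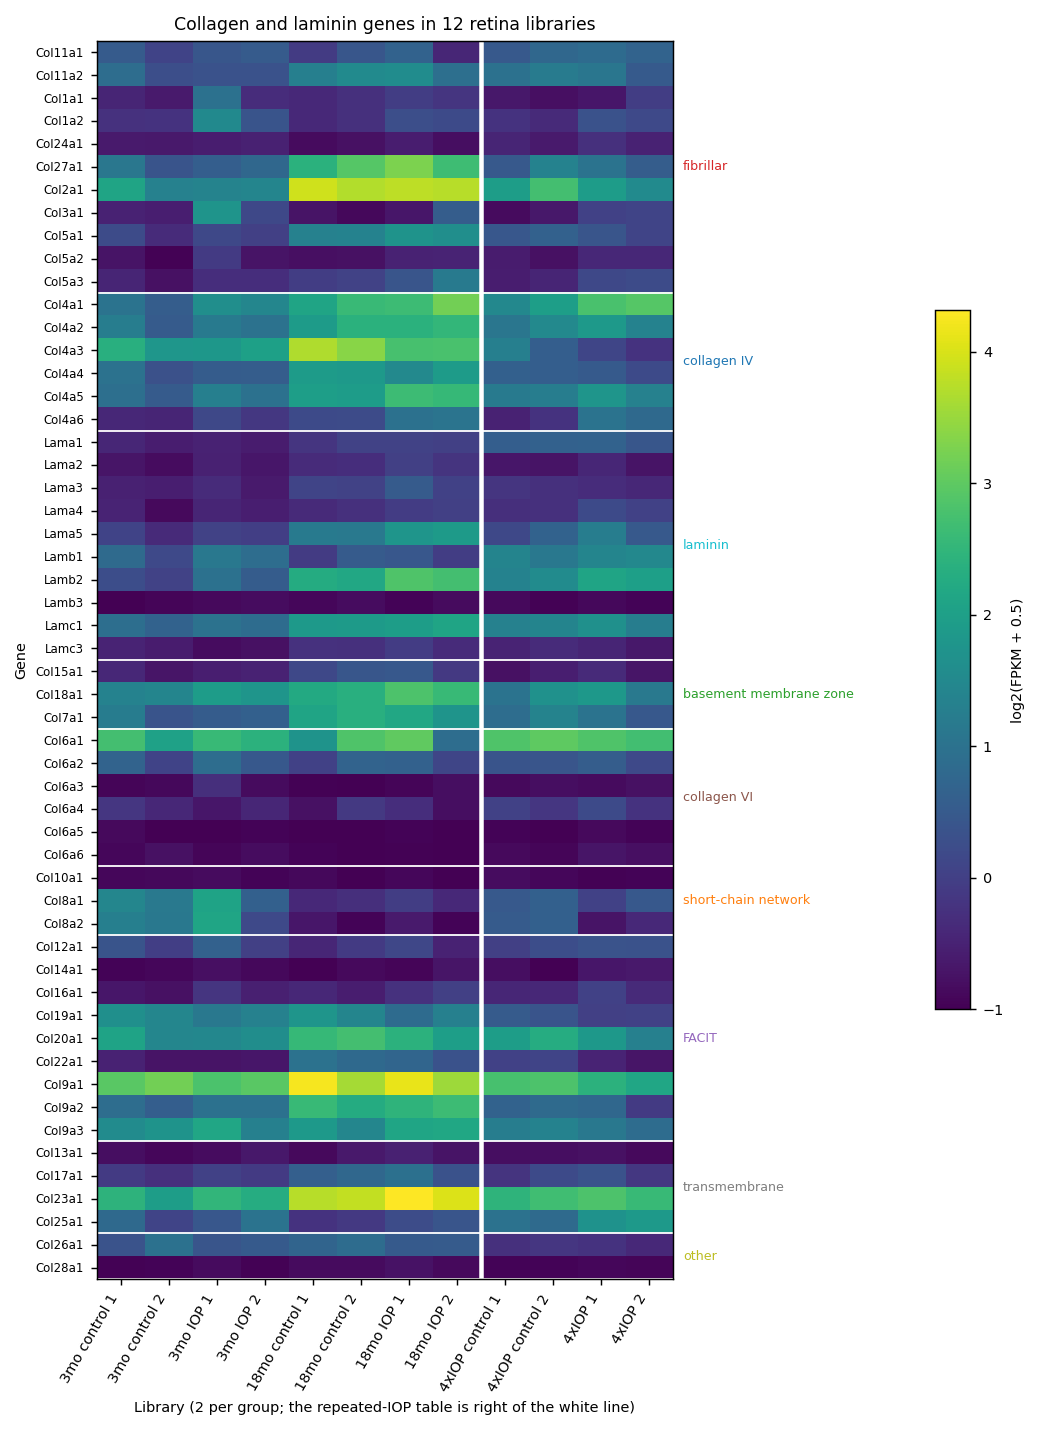
Level of the collagen and laminin genes (rows, grouped by role) in each of the 12 libraries (columns), coloured by log2(FPKM + 0.5); the white vertical line parts the 2 separately made tables. Col9a1, Col23a1 and Col2a1 are bright in the 18-month libraries, and Col8a1 and Col8a2 are dark there.

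The libraries differed in how short and long transcripts were represented, which touches every age result below, because these genes are long. Their transcripts measured between 2712 and 11651 bases with a median of 6043, against a median of 2772 bases over the genes tested in the first series. Among protein-coding genes averaging 0.5 FPKM or more, the median FPKM of those under 1000 bases, divided by the median of those of 4000 bases or more, was between 3.03 and 9.12 in the 4 libraries of 3 months and between 1.52 and 1.89 in the 4 of 18 months. It was between 1.97 and 2.91 in the second series. Length representation and age therefore move together in the first series and cannot be told apart there by the design. The second series, of mice treated from the age of 3 months, lay below every 3-month library of the first. Age results of members are given with FPKM as deposited and after each library's trend on length, or on length and GC content, was removed. Levels of cell type markers are given in FPKM as deposited only.

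The first comparison asked how matrix genes differ between retinas of 18 and 3 months in control eyes. Of the 10 tested collagen IV and laminin chains, 8 were called higher at 18 months in FPKM as deposited. With length and GC trends removed, 1 of them was. The short-chain collagens Col8a1 and Col8a2 were called lower. Differences are log2 fold changes of FPKM + 0.5 fitted in limma over every gene averaging 0.5 FPKM or more in its table, with the Benjamini-Hochberg adjusted p, and a gene was called at an adjusted p of at most 0.05 and a difference of at least 1. Of the 35 members tested, 15 were called higher and 2 lower, where 11.6% of all 13731 tested genes were called higher and 11.6% lower. Among the 2331 tested transcripts of at least 5000 bases, 18.7% were called higher and 1.37% lower. With the length trend removed, 7 members were called higher and 3 lower, where 8.36% of all tested genes were called higher and 7.76% lower. Of the long transcripts 3.78% were called higher and 4.68% lower. When length and GC trends were removed, 2 members were called higher and 3 lower, where the shares were 5.69%, 4.07%, 2.02% and 1.85% in that order. The median difference of the tested members was 0.88, against 0.16 over all tested genes and 0.54 over those of at least 5000 bases, and it was -0.03 with length and GC trends removed. Under that setting the 10 tested collagen IV and laminin chains had a median of 0.43 and the 8 tested fibrillar chains one of -0.37, against 0.08 over all tested genes. Over all 55 members, both 18mo control libraries lay above both 3mo control libraries for 32 and below them for 10, against 36.5% and 27.7% of the 20302 genes above 0 in a library.

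Among collagen IV chains, all 6 had both 18mo control libraries above both 3mo control libraries, and 5 of the 6 were called higher. Col4a1, a chain of the widespread collagen IV network, which it builds with Col4a2, was at 1.52 and 0.977 FPKM in 3mo control and at 3.80 and 5.56 in 18mo control libraries. The groups did not overlap, and the log2 difference was 1.56 (SE 0.27, limma adjusted p = 0.00623). Col4a3, a chain of the specialised network it forms with Col4a4 and Col4a5, was at 4.64 and 2.97 FPKM in 3mo control and at 12.3 and 9.91 in 18mo control. Both older libraries were well above both younger ones, with a difference of 1.45 (SE 0.22, adjusted p = 0.0055). Col4a2, Col4a4 and Col4a5 rose by between 1.23 and 1.27. Without 18mo control replicate 2, Col4a1, Col4a2 and Col4a4 lost their calls, at 1.315, 1.02 and 1.26. Without 3mo control replicate 2, Col4a2 and Col4a4 came to 0.90 each, under the fold threshold. Col4a4 also lost its call without 18mo control replicate 1 (1.22). Col4a6 was at 0.255 and 0.232 FPKM in 3mo control and at 0.643 and 0.66 in 18mo control. It was the collagen IV chain not called in this comparison. With the length trend removed 1 collagen IV chain, Col4a1, was still called (1.13), and with length and GC trends removed none was.

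Among the laminin chains, 9 had both 18mo control libraries above both 3mo control libraries, and Lamb1 overlapped. Lamb2, the beta chain of vascular and inner limiting membrane laminins, was at 0.702 and 0.54 FPKM in 3mo control and at 4.29 and 4.05 in 18mo control. No library of one age came near the other, and the difference was 2.06 (SE 0.21, adjusted p = 0.00281). It was 1.67 with the length trend removed and 1.07 with length and GC trends removed (adjusted p = 0.0133), and it stayed called when any 1 of the 8 libraries was left out. Lama5, a broadly expressed alpha chain, rose by 1.31 (SE 0.22, adjusted p = 0.00601), and Lamc1, the common gamma chain, by 1.09 (SE 0.19, adjusted p = 0.00623). With length and GC trends removed these 2 came to 0.18 and 0.31, neither called. Lamc1 also lost its call without 18mo control replicate 2 (1.08) or 3mo control replicate 2 (0.96). Of the 3 chains of the basement membrane zone, Col7a1, the anchoring fibril collagen, rose by 1.42 (SE 0.30, adjusted p = 0.00928), and by 0.26 with length and GC trends removed, which was not called. Its call was also lost without 18mo control replicate 2 (1.30).

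Fibrillar chains were divided. Col2a1 (chr15:97975602-98004724, minus strand) was at 3.79 and 2.03 FPKM in 3mo control and at 14.7 and 12.5 in 18mo control. The 2 ages were far apart, and the difference was 2.09 (SE 0.25, adjusted p = 0.00417), or 1.10 with length and GC trends removed (adjusted p = 0.00524). Col27a1, a fibrillar chain of cartilage, was at 1.64 and 0.794 FPKM in 3mo control and at 4.72 and 6.99 in 18mo control. Its difference was 1.91 (SE 0.32, adjusted p = 0.00594), and 0.82 with length and GC trends removed, under the fold threshold. Col5a1, which helps to set fibril diameter, rose by 1.40 (SE 0.24, adjusted p = 0.00602), and by 0.34 with both trends removed, which was not called. Col1a2 and Col3a1, of types I and III, were not called, and Col1a1 was under the filter and not tested. Col1a1 was at 0.229 and 0.157 FPKM in 3mo control and at 0.264 and 0.331 in 18mo control. Col3a1 was at 0.214 and 0.179 FPKM in 3mo control and at 0.103 and 0.039 in 18mo control. Of the 11 fibrillar chains, 6 had both older libraries above both younger ones, 3 had them below, and 2 overlapped. Of genes above 0 in a library, 36.5% lay above and 27.7% below.

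The remaining chains called in control eyes were 2 FACIT chains and a transmembrane one. Col9a2, which joins Col9a1 in type IX collagen, rose by 1.67 (SE 0.20, adjusted p = 0.00425), and by 0.96 with length and GC trends removed. Its transcript, of 2712 bases, is the shortest of the 55. Col22a1, a FACIT chain of tissue junctions, rose by 1.51 (SE 0.24, adjusted p = 0.00563), and Col23a1 by 1.59 (SE 0.21, adjusted p = 0.00484). They came to 0.84 and 0.77 with length and GC trends removed, and none of these 3 chains was called. Of the 6 chains of collagen VI, a microfibril that links cells to the matrix, only Col6a1 and Col6a2 were tested, and neither was called in any comparison. The more abundant of them, Col6a1, was at 6.16 and 3.60 FPKM in 3mo control, 2.80 and 6.72 in 18mo control and 7.56 and 1.36 in 18mo IOP, so that the 2 libraries of each of these groups lay farther apart than the means of the groups.

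Col8a1 and Col8a2, of the short-chain collagens, went the other way. Col8a2 was at 1.97 and 1.70 FPKM in 3mo control and at 0.127 and 0.02 in 18mo control. The older libraries held 24 and 4 reads, where the younger held 353 and 350. The difference was -2.03 (SE 0.54, adjusted p = 0.0188). Col8a1 was at 2.21 and 1.71 FPKM in 3mo control and at 0.268 and 0.327 in 18mo control, a difference of -1.62 (SE 0.43, adjusted p = 0.0182). With length and GC trends removed the differences were -2.89 and -1.87. Neither chain was called when any 1 library of these 2 groups was left out, with differences between -2.16 and -1.47.

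**Figure D2:**
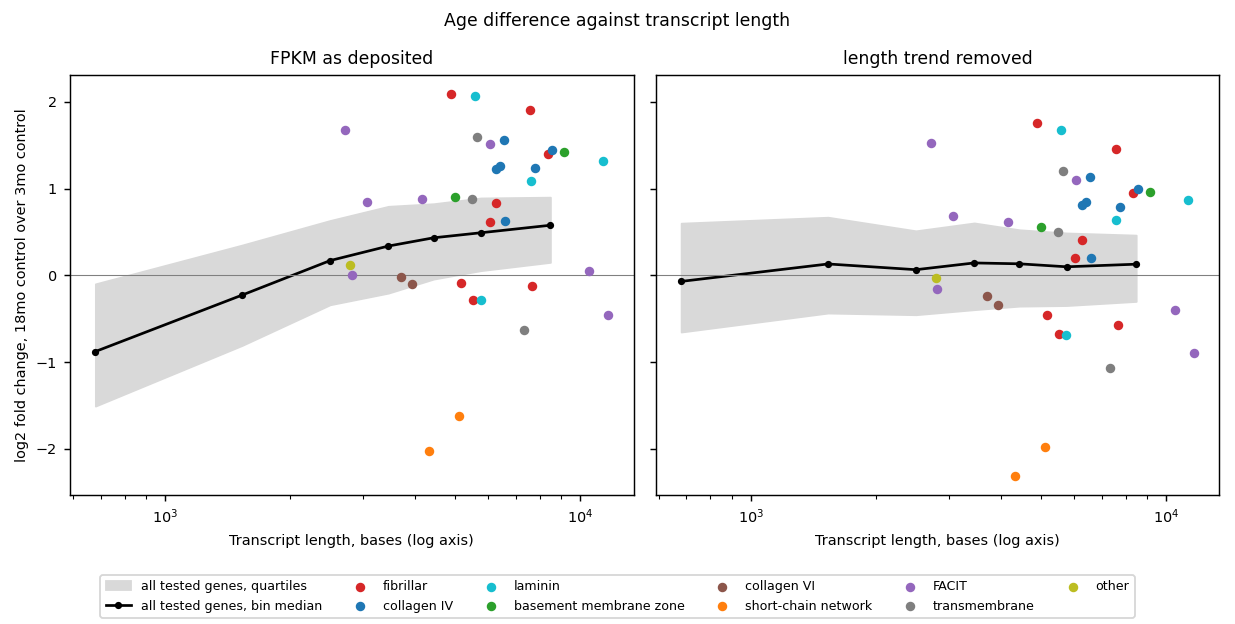
Log2 difference of 18mo control over 3mo control (vertical axis) against transcript length in bases (log axis) for the tested members, coloured by role, with the median (black) and quartiles (grey) of all tested genes in 7 bins of length; left, FPKM as deposited, and right, with the length trend removed. On the left the median of all genes goes from -0.88 under 1000 bases to 0.58 from 7000 bases on, and on the right it stays between -0.07 and 0.14.

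Markers of several cell types also differed with age, in FPKM as deposited, with no length or GC trend removed. All 12 endothelial markers were higher in both 18mo control libraries, and their summed level was between 17.9 and 19.9 FPKM in 3mo control and between 88.6 and 93.8 in 18mo control. Of 12 pericyte and smooth muscle markers 10 were higher in both, with sums between 12.4 and 12.6 FPKM and between 41.7 and 45.6. Of 12 RPE and pigment cell markers 11 were lower in both 18mo control libraries. That list summed to between 233.8 and 239.5 FPKM in 3mo control and to between 16.0 and 28.9 in 18mo control, and Rpe65 went from 17.6 and 18.2 FPKM to 0.462 and 0.176. Mlana and Dct were at 0 in 18mo control replicate 2. Of 12 markers of Müller glia, the radial glia of the retina, 8 were higher in both and 0 lower, with sums of 998 and 1361 FPKM in 3mo control and 2235 and 1911 in 18mo control. Of 10 microglia and leukocyte markers 8 were higher in both, with sums of 25.3 and 35.2 and then 69.0 and 74.0 FPKM. Of 8 retinal ganglion cell markers 7 were lower in both, with sums of 337 and 657 and then 57.0 and 107 FPKM. In 3mo control the largest part of that sum was Sncg, at 150 and 443 FPKM. Of 12 lens markers 7 were lower in both, with sums of 13.6 and 11.8 and then 3.36 and 4.45 FPKM. The rod markers Gnat1, Nrl, Pde6b, Sag, Cnga1 and Prph2 were also lower in both, and Nr2e3 was higher. Of 12 fibroblast markers 8 were lower in both, with sums between 76.2 and 90.1 FPKM and between 28.6 and 43.0, and Dpt was at 0 in both 18mo control libraries. Thy1, which retinal ganglion cells also make, was the fibroblast list's highest gene, at between 61.2 and 74.0 FPKM and between 18.7 and 37.0, and Dcn, Lum, Mfap5 and Ogn of that list are also counted among the fibril partners below. The part of these cell types in the differences of the collagens and laminins was not tested, and in bulk tissue fewer cells of a type and less RNA per cell cannot be told apart.

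The same age comparison in eyes that had been at 30 mmHg uses the other 4 libraries of the first series. Of the 35 members tested, 16 were called higher and 2 lower, where 10.2% of all tested genes were called higher and 11.6% lower, and 18.5% and 1.2% of transcripts of at least 5000 bases. With the length trend removed 7 were called higher and 5 lower, where 7.63% of all tested genes were called higher and 7.09% lower. Of the long transcripts 4.29% were called higher and 4.76% lower. When length and GC trends were removed, 4 were called higher and 6 lower, where the shares were 5.9%, 4.61%, 2.92% and 2.71% in that order. Over all 55 members, both 18mo IOP libraries lay above both 3mo IOP libraries for 30 and below them for 6, against 34.5% and 29.9% of genes above 0. Of the members called, 14 were called higher and 2 lower in control eyes as well (scatter of the age differences in both eye types). Of all tested genes 7.74% were called higher in both eye types and 9.67% lower.

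Lamb2 was at 1.49 and 0.966 FPKM in 3mo IOP and at 6.74 and 6.13 in 18mo IOP, a difference of 2.02 (SE 0.21, limma adjusted p = 0.00206). Col2a1 was at 2.08 and 2.19 FPKM in 3mo IOP and at 13.3 and 12.9 in 18mo IOP, a difference of 2.37 (SE 0.25, adjusted p = 0.00207). In both genes the ages were far apart, and the differences were 1.11 and 1.48 with length and GC trends removed. Lamb2 and Col2a1 were called in both age comparisons under each of the 13 alternative settings and when any 1 library was left out. In IOP eyes the same held for Col27a1, at 2.29 (SE 0.32, adjusted p = 0.00391), and Col9a2, at 1.57 (SE 0.20, adjusted p = 0.00315).

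Among collagen IV chains Col4a5 rose by 1.46, Col4a1 and Col4a2 by 1.38 each, Col4a4 by 1.14 and Col4a6 by 1.01 in IOP eyes, with adjusted p-values between 0.00459 and 0.014. Without 3mo IOP replicate 1 or replicate 2, Col4a1, Col4a2, Col4a4 and Col4a6 lost their calls, with differences between 0.87 and 1.48. With median-of-ratios size factors and with quantile normalization Col4a6 came to 0.93 and 0.95, under the fold threshold. Col4a3 was at 3.04 and 3.57 FPKM in 3mo IOP and at 6.30 and 6.43 in 18mo IOP. It had no overlap but was not called. Lama5 rose by 1.82 (SE 0.22, adjusted p = 0.00282) and Lamc1 by 1.09 (SE 0.19, adjusted p = 0.00668). With length and GC trends removed no collagen IV chain was called, and of the laminins Lamb2 was called higher and Lamb1 lower. Col5a1 rose by 1.60, Col23a1 by 1.78, Col7a1 by 1.39, Col22a1 by 1.23 and Col5a3, a fibrillar chain of type V, by 1.09. None of these 5 was called with length and GC trends removed, where they came to 0.58, 0.99, 0.29, 0.55 and 0.10. Col5a3 came to 0.70 without 18mo IOP replicate 2 and to 0.77 with a pseudocount of 1, under the fold threshold. Without 3mo IOP replicate 1 or replicate 2, Col5a3, Col7a1 and Col22a1 lost their calls, at between 1.085 and 1.425.

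Col8a2 was at 3.86 and 0.621 FPKM in 3mo IOP and at 0.152 and 0.016 in 18mo IOP, a difference of -1.93 (SE 0.54, adjusted p = 0.0241). Col8a1 was at 3.73 and 1.04 FPKM in 3mo IOP and at 0.482 and 0.26 in 18mo IOP, a difference of -1.57 (SE 0.43, adjusted p = 0.0225). In both genes 3mo IOP replicate 1 was the highest library of the 8. Without it the differences were -0.95 and -0.84, neither was called, and 9 members were called higher and 0 lower. Without 3mo IOP replicate 2, 8 were called higher and 3 lower. Without 18mo IOP replicate 2, 0 were called lower. The RPE and pigment cell markers, 11 of 12 of them lower in both 18mo IOP libraries, summed to 725.9 and 324.6 FPKM in 3mo IOP and to 24.0 and 15.4 in 18mo IOP. All 12 endothelial markers were higher, with sums of 23.4 and 20.3 against 130.1 and 115.7 FPKM. Of 12 Müller glia markers 10 were higher, with sums of 1767 and 1275 against 3315 and 3728 FPKM, and of 10 microglia and leukocyte markers 6, with sums of 71.3 and 53.3 against 183.4 and 91.9. Of 12 pericyte and smooth muscle markers 6 were higher and 4 lower, with sums of 104.6 and 46.8 against 59.2 and 47.0 FPKM. Of 12 fibroblast markers 10 were lower, with sums of 152.9 and 117.8 against 55.4 and 25.5 FPKM, and of 8 ganglion cell markers 7, with sums of 467 and 527 against 124 and 52.7. The rod markers Gnat1, Nrl, Pde6b, Sag, Cnga1 and Prph2 were lower, and Nr2e3 overlapped. Their part in these differences was not tested.

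**Figure D3:**
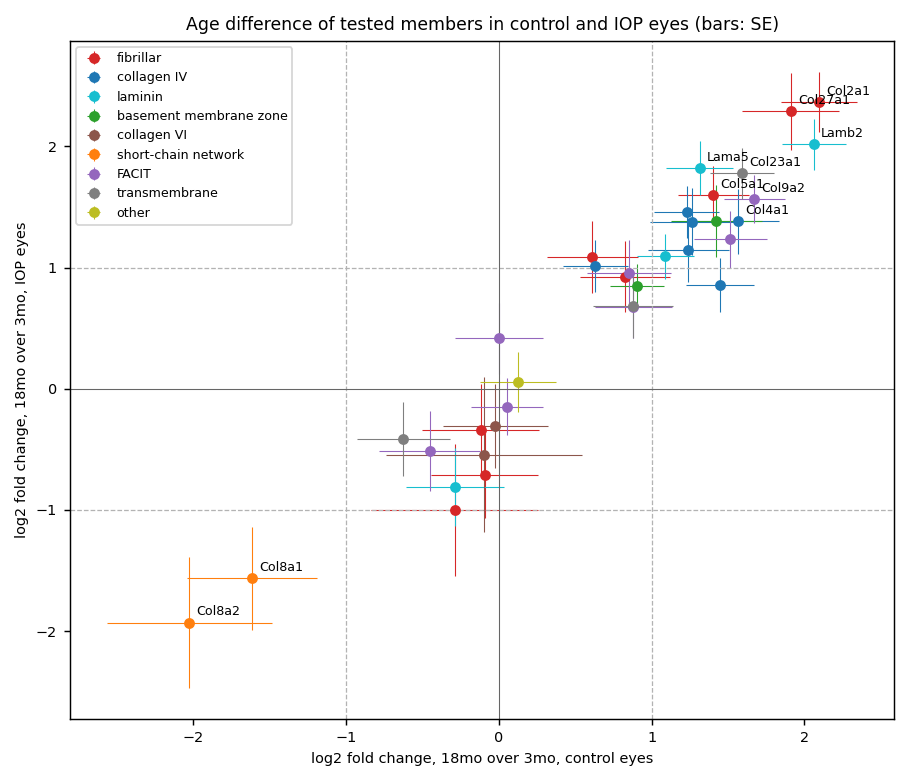
Log2 difference of 18 over 3 months in control eyes (horizontal) and in IOP eyes (vertical) for the 35 tested members, coloured by role, with bars of 1 SE and dashed lines at the fold threshold of 1. Lamb2, Col2a1 and Col27a1 are at the upper right and Col8a1 and Col8a2 at the lower left.

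The second question was whether a single elevation of pressure changed these genes within 2 days. No member was called at either age. At 3 months 0.568% of all tested genes were called higher and 0.00728% lower, at 18 months 0.117% and 0.00728%. At an unadjusted p under 0.05, 5 of the 35 tested members passed at 3 months, where 8.51% of all tested genes did, and 7 at 18 months, where 9.45% did. With voom on recovered reads 0 members were called at either age as well. Over all 55 members, both 3mo IOP libraries lay above both 3mo control libraries for 20 and below them for 3, against 25.9% and 4.88% of genes above 0. At 18 months the counts were 21 and 5, against 30.0% and 8.99%. The interaction of IOP with age passed the adjusted p for no gene, and 218 of 13731 genes (1.59%) had an unadjusted p under 0.05, none of them a member. The median difference of the 10 tested collagen IV and laminin chains was 0.30 at 3 months and 0.43 at 18 months, and that of the 8 tested fibrillar chains 0.16 and 0.33, against 0.13 and 0.09 over all tested genes. With the length trend removed these medians were 0.48 and 0.50, and 0.34 and 0.43, against 0.14 and 0.09. These comparisons share their control libraries with the age comparison in control eyes.

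Types I and III collagen had the largest differences at 3 months, and 1 library enlarged them. Col3a1 was at 0.214 and 0.179 FPKM in 3mo control and at 2.86 and 0.614 in 3mo IOP. Col1a2 was at 0.349 and 0.361 FPKM in 3mo control and at 2.37 and 0.799 in 3mo IOP. In both genes the IOP libraries were above the controls, but replicate 1 was several times higher than replicate 2. The log2 differences were 1.47 (SE 0.55, limma adjusted p = 0.44) and 1.18 (SE 0.35, adjusted p = 0.28), and without 3mo IOP replicate 1 they were 0.68 and 0.60. Col1a1 was at 1.49 FPKM in that library and between 0.157 and 0.294 in the other 3 of 3 months. Col6a3, a collagen VI chain of connective tissue, was at 0.324 FPKM there and between 0.024 and 0.059 in the other 3.

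In the same library the fibroblast marker Dcn was at 41.8 FPKM, against 11.4 in replicate 2 and 2.27 and 3.40 in the controls. The smooth muscle marker Acta2 was at 46.0 FPKM, against 16.8 and then 2.25 and 1.67. Of 12 fibroblast markers 6 were higher in both 3mo IOP libraries, with sums of 152.9 and 117.8 against 76.2 and 90.1 FPKM, and of 12 pericyte and smooth muscle markers 9, with sums of 104.6 and 46.8 against 12.4 and 12.6. RPE and pigment cell markers summed to 725.9 and 324.6 FPKM against 239.5 and 233.8, with 6 of 12 higher in both. Of 6 astrocyte markers 4 were higher in both, with sums of 64.4 and 58.3 against 16.2 and 16.7 FPKM, and of 10 microglia and leukocyte markers 9, with sums of 71.3 and 53.3 against 25.3 and 35.2. Dpt was listed at 0 in 1 control library and at 0.388 FPKM in 3mo IOP replicate 1. Their part in the levels of types I and III collagen was not tested.

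Of the basement membrane chains at 3 months, Col4a1 was at 1.52 and 0.977 FPKM in 3mo control and at 2.59 and 2.21 in 3mo IOP, a difference of 0.74 (SE 0.27, adjusted p = 0.43). At 18 months Col4a6 was at 0.643 and 0.66 FPKM in control and at 1.47 and 1.56 in IOP libraries. The groups were well apart, at 0.81 (SE 0.21, adjusted p = 0.20), and the call was missed. Col5a3 was at 0.479 and 0.527 FPKM in control and at 0.816 and 1.77 in IOP libraries, with 0.78 (SE 0.30, adjusted p = 0.41). Col3a1 was at 0.103 and 0.039 FPKM in 18mo control and at 0.129 and 0.992 in 18mo IOP, with 0.76 (SE 0.55, adjusted p = 0.91), and only replicate 2 stood out. Col4a3, at 12.3 and 9.91 FPKM in 18mo control, was at 6.30 and 6.43 in 18mo IOP, the one collagen IV chain with both IOP libraries below both controls at that age. All 6 astrocyte markers were higher in both 18mo IOP libraries, with sums of 15.5 and 14.2 FPKM in control and 57.1 and 123.8 in IOP, and 9 of 12 lens markers, with sums of 3.36 and 4.45 against 7.30 and 17.1. Of 12 Müller glia markers 9 were higher in both, with sums of 2235 and 1911 against 3315 and 3728 FPKM. All 6 blood markers were lower in both, with sums of 166.0 and 425.7 against 54.3 and 44.3 FPKM. Their part in these differences was not tested.

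**Figure D4:**
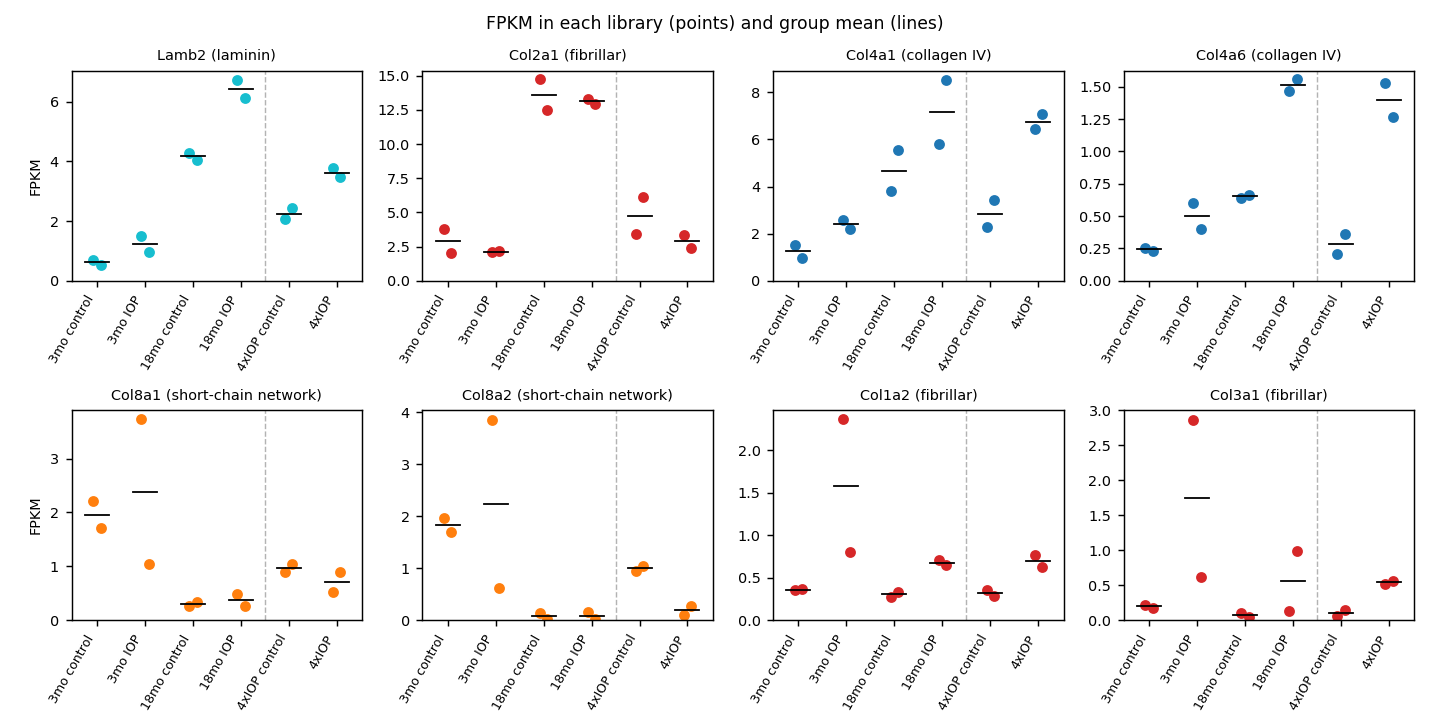
FPKM of 8 members (panels, coloured by role) in each of the 6 groups; points are the 2 libraries of a group, lines their mean, and the dashed line parts the 2 separately made tables. Lamb2 and Col2a1 are high in both 18-month groups, Col4a6 in 18mo IOP and 4xIOP, Col8a1 and Col8a2 in the 3-month groups, and Col1a2 and Col3a1 in 1 library of 3mo IOP.

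The third comparison asked what 4 elevations did, in a table fitted on its own. The collagen IV chains Col4a1 and Col4a6 were called higher and the short-chain collagen Col8a2 lower in 4xIOP eyes. Of the 32 members tested, 2 (6.25%) were called higher and 1 lower, where 5.45% of all 13718 tested genes were called higher and 0.693% lower. The share of members called higher was thus near that of all genes. None of the 6 tested fibrillar chains was called, too few to tell them from all tested genes at such shares. The median difference of the tested members was -0.05, of the 11 tested collagen IV and laminin chains 0.31 and of the 6 tested fibrillar chains -0.21, against 0.10 over all tested genes. The fibrillar median was 0.00 with length and GC trends removed. Over all 55 members, both 4xIOP libraries lay above both controls for 17 and below them for 13, against 28.1% and 11.7% of genes above 0. When length and GC trends were removed, 3 members were called higher and 1 lower, where 5.52% of all tested genes were called higher and 0.741% lower.

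Col4a1 was at 2.28 and 3.42 FPKM in 4xIOP control and at 6.43 and 7.08 in 4xIOP, a difference of 1.13 (SE 0.22, limma adjusted p = 0.00415). Col4a6 was at 0.21 and 0.361 FPKM in 4xIOP control and at 1.53 and 1.26 in 4xIOP, a difference of 1.27 (SE 0.25, adjusted p = 0.00486). The groups of both genes did not overlap. Col4a1 lost its call without 4xIOP control replicate 1 (0.89), 4xIOP replicate 1 (1.20) or 4xIOP replicate 2 (1.07), and Col4a6 lost it without 4xIOP replicate 1 (1.18, adjusted p = 0.0508). Their partners in the head-to-head pairs were not called. Col4a2 was at 1.63 and 2.33 FPKM in control and at 3.10 and 2.06 in 4xIOP, which overlap. Col4a5 was at 1.74 and 1.88 FPKM in control and at 2.90 and 2.04 in 4xIOP, which do not.

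Col4a3 was at 1.96 and 0.997 FPKM in 4xIOP control and at 0.577 and 0.357 in 4xIOP. Both IOP libraries were lower, and the difference of -0.997 (SE 0.28, adjusted p = 0.0457) was just short of the fold threshold. Over the alternative settings its adjusted p was between 0.000228 and 0.168. With a pseudocount of 0.1 or quantile normalization Col4a3 was called lower (-1.43 and -1.26), and in the other alternative settings it was not. Col4a4 was at 1.06 and 1.00 FPKM in control and at 0.927 and 0.637 in 4xIOP. Col25a1, a transmembrane collagen known from neurons and amyloid plaques, was at 1.49 and 1.28 FPKM in control and at 2.78 and 3.13 in 4xIOP. Its groups were far apart, with 0.87 (SE 0.20, adjusted p = 0.0149), under the fold threshold. It was called, at 1.04, with length and GC trends removed and with a pseudocount of 0.1, and in no other alternative setting. Col4a3 and Col25a1 were chosen for mention after their values were seen.

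Col8a2 was at 0.942 and 1.05 FPKM in 4xIOP control and at 0.107 and 0.263 in 4xIOP, a difference of -1.13 (SE 0.26, adjusted p = 0.0158). The groups did not overlap, and the call was lost without either control library (-1.19 and -1.08) or without 4xIOP replicate 1 (-0.97). Col8a1 was at 0.902 and 1.05 FPKM in control and at 0.513 and 0.885 in 4xIOP and was not called. Of the RPE and pigment cell markers 9 of 12 were lower in both 4xIOP libraries, with sums of 34.5 and 43.3 FPKM in control and 7.25 and 12.7 in 4xIOP, and Rpe65 was at 2.38 and 5.29 FPKM against 0.254 and 0.466. Mlana was at 0 in 4xIOP replicate 1. Their part in the difference of Col8a2 was not tested.

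Other marker lists differed between the same libraries. Of 12 endothelial markers 8 were higher in both 4xIOP libraries, with sums of 38.7 and 45.5 FPKM in control and 72.4 and 77.9 in 4xIOP. Of 12 lens markers, whose cells lie on a capsule of collagen IV and laminin, 11 were higher in both, with sums of 3.79 and 1.42 FPKM against 43.3 and 89.9. Cryaa was the lens marker with the highest level in 4xIOP replicate 1, at 16.7 FPKM, and Cryba1 in replicate 2, at 29.8. Crygd and Mip were at 0 in both control libraries. All 10 microglia and leukocyte markers were higher in both, with sums of 13.7 and 14.0 FPKM against 97.9 and 98.5. Of 6 astrocyte markers 3 were higher and 0 lower in both, with sums of 9.79 and 10.2 FPKM against 69.9 and 65.7, and Gfap, which reactive Müller glia also make, was at 2.14 and 2.69 against 46.1 and 32.7. Of 12 Müller glia markers 7 were higher and 2 lower in both, with sums of 1157 and 1214 FPKM against 1223 and 1469. Rod markers were lower: Gnat1 was at 2535 and 2835 FPKM in control and at 1031 and 1558 in 4xIOP, and Nrl, Pde6b, Nr2e3, Cnga1 and Prph2 were also below both controls in both 4xIOP libraries, while Sag overlapped. FPKM are shares of a library, so less rod RNA and more RNA of other genes cannot be told apart in them. Their part in the differences of Col4a1 and Col4a6 was not tested.

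**Figure D5:**
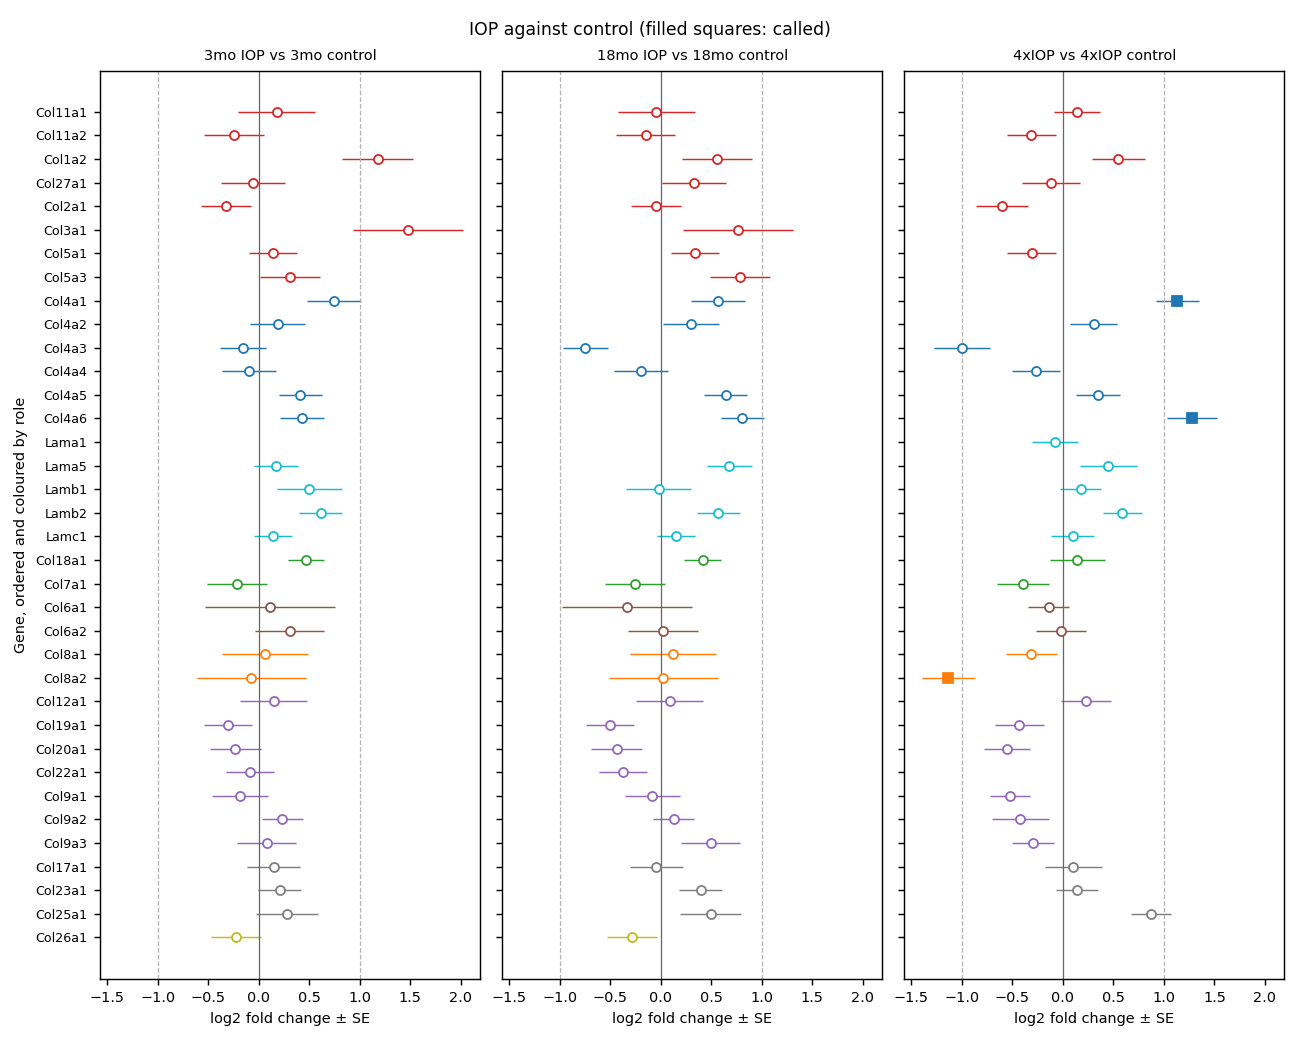
Log2 difference of IOP over control eyes (horizontal, bars of 1 SE) for each tested member (rows, ordered and coloured by role) after a single elevation at 3 months, at 18 months and after 4 elevations; filled squares are called genes and dashed lines the fold threshold of 1. Only Col4a1, Col4a6 and Col8a2, all after 4 elevations, are called.

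Genes that work on or with these chains were counted in 5 lists. In control eyes with age, 5 of 10 tested basement membrane partners were called higher and 1 lower, 5 of 10 receptors higher, 5 of 20 genes of chain modification and secretion higher and 1 lower, 3 of 10 genes of processing and cross-linking higher, and 4 of 16 fibril partners higher and 1 lower. Over all tested genes these shares were 11.6% higher and 11.6% lower, and 18.7% higher among transcripts of at least 5000 bases. Sparc, a collagen-binding protein of basement membranes, rose by 1.70, Ddr1, a receptor kinase for collagen, by 1.95, Tgm2, a cross-linking transglutaminase, by 2.08, and fibronectin (Fn1) by 2.12 (adjusted p between 0.00417 and 0.00484). The 5 medians were between 0.39 and 1.03, against 0.16 over all tested genes. Fbln1, a basement membrane fibulin, fell by 1.96 and Ogn, a small proteoglycan, by 1.76. With length and GC trends removed the 5 lists had 3, 2, 1, 2 and 5 genes called higher, in the order above, and 1 basement membrane partner called lower, where 5.69% of all tested genes were called higher and 4.07% lower. Sparc, Ddr1, Tgm2 and Fn1 were still called, at between 1.18 and 1.41. Bcam (0.55), Itga7 (0.41), Dag1 (0.33), Bmp1 (0.57), Plod3 (0.67), Fkbp10 (0.64) and Ogn (-0.999) were not. In IOP eyes with age the counts were 3 higher and 1 lower, 2, 6, 4, and 4 higher and 4 lower in the same order, where 10.2% of all tested genes were called higher and 11.6% lower. The counts with length and GC trends removed were 2 higher and 1 lower, 1, 3, 3, and 5 higher and 3 lower, against 5.9% and 4.61% of all tested genes. Lum, Ogn and Dcn, proteoglycans of collagen fibrils, fell by between 2.55 and 2.79. Dcn was not called with length and GC trends removed (-1.89, adjusted p = 0.0737), and 3mo IOP replicate 1 was well above replicate 2 in Dcn, at 41.8 against 11.4 FPKM, and in Lum, at 5.65 against 2.16.

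After a single elevation 1 gene of the 5 lists was called at 3 months, Lum, at 2.45 (SE 0.38, limma adjusted p = 0.0372), and none at 18 months. Where length and GC trends were removed, 1 basement membrane partner, 1 gene of processing and cross-linking and 3 fibril partners were called higher at 3 months, and 1 basement membrane partner and 1 fibril partner at 18 months, against 0.806% and 0.447% of all tested genes. The 5 medians were between 0.26 and 0.78 at 3 months, against 0.13 over all tested genes, and between 0.17 and 0.72 at 18 months, against 0.09. After 4 elevations 1 of 9 basement membrane partners (Sparc, 1.14), 2 of 8 receptors (Lair1 and Itga6, 1.16 and 1.15), 1 of 19 genes of chain modification (Fkbp10, 1.18), 4 of 10 of processing and cross-linking and 5 of 12 fibril partners were called higher, and none was called lower, against 5.45% and 0.693% of all tested genes. Pcolce, which speeds the trimming of fibrillar procollagen, was at 0.543 and 1.36 FPKM in control and at 8.59 and 14.0 in 4xIOP, and Bmp1, the proteinase that does the trimming, at 1.61 and 1.56 and at 9.72 and 8.19. They rose by 3.04 and 2.18 (adjusted p = 1.27e-05 and 9.17e-06). Tgfbi, a collagen-binding secreted protein, was at 0.075 and 0.114 FPKM in control and at 9.46 and 8.96 in 4xIOP, and rose by 4.03 (adjusted p = 8.2e-08). The 5 medians were between 0.20 and 0.63, against 0.10 over all tested genes. None of the 6 tested fibrillar chains was called beside them. The other 5 were under the filter. Of these, Col3a1 was at 0.055 and 0.137 FPKM in control and at 0.517 and 0.562 in 4xIOP, and Col5a3 at 0.175 and 0.231 and at 0.61 and 0.654, both without overlap. Of all 11 fibrillar chains, 4 (36.4%) had both 4xIOP libraries above both controls and 2 (18.2%) had them below. Of genes above 0 in a library, 28.1% and 11.7% did.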

How the data were processed

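Poly(A) RNA of bulk mouse retina was sequenced in 12 libraries of 6 groups. Per the labels and the study's methods, the authors made strand-specific TruSeq libraries, mapped reads to mm10 with STAR 2.7.8a, counted uniquely mapped exonic tags on 1 isoform per locus with HOMER, and tested with DESeq2 1.24.0. The authors deposited FPKM values, with a separate table for each series. Both tables use the same transcript for 51 of the 55 genes, and different transcripts for the other 4. Replicates were not pooled.

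Genes averaging 0.5 FPKM or more in a table were tested (13731 and 13718). Values of log2(FPKM + 0.5) entered limma 3.58.1 in R 4.3.3 (lmFit, then eBayes with its trend option), the first table as 4 groups and the second as 2, with 4 and 2 residual degrees of freedom. Adjustment was Benjamini-Hochberg over all tested genes. A gene was called at an adjusted p up to 0.05 and a difference of 1 or more in either direction, and the interaction by adjusted p alone. Because FPKM times length is a whole number of reads over the library's tags, depth was recovered: 100% of the low values checked in each library lay within 0.1 of a whole read. Each library's length and GC trends used the tables' transcript lengths and the GC content of GENCODE transcripts, known for at least 99.3% of tested genes.

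A fold change is given for members that were called and for the 3 largest without overlap in each comparison. Partner genes are named where called, at most 4 a list. Members and lists were chosen with earlier results of these data known. The study calls the 2 libraries of a group biological replicates and took RNA from the retina of each eye, and the labels give a replicate number only, with no animal. Results were recomputed under 13 other settings, 1 of them chosen after seeing the data, and each library was left out in turn. The fit was run on simulated data as a check of the code only, and no result here rests on it. 1 gene under the filter is not reported here, nor drawn in the heatmap. Mir455, Mir711 and Mir7005 lie on the same strand within Col27a1, Col7a1 and Lama5.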

Additional observations from a re-analysis of the deposited data

How the results depend on the processing

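For the 46 named values, no alternative setting and no left-out library turned a direction. Removing length and GC trends took the call from 25 of them, removing the length trend from 17 and a pseudocount of 1 from 9. Voom on recovered reads, eBayes without a trend and a filter of 2 FPKM on the mean took none, though the last left 26 values. With the length trend removed, the members called higher with age were 7 in control eyes and 7 in IOP eyes (from 15 and 16), and those called lower in IOP eyes 5 (from 2). With length and GC trends removed they were 2 and 4 higher, and 6 lower in IOP eyes. Members called lower with age were 0 and 0 with a filter of 2 FPKM, and in IOP eyes 1 with no filter and 0 with only the 2 groups fitted. For 4xIOP, 1 member was called higher with a filter of 2 FPKM, with no filter or with a pseudocount of 1, and 0 with quantile normalization (from 2). There 0 were called lower with a filter of 2 FPKM or a pseudocount of 1, and 2 with a pseudocount of 0.1 or quantile normalization (from 1). Apart from the filters, which change the genes tested, the causes were not tested. Median-of-ratios size factors moved the median of all genes from 0.16 to 0.01 in the control-eye age comparison.

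Leaving out each library in turn gave between 10 and 17 members higher and between 0 and 2 lower with age in control eyes, between 8 and 16 higher and between 0 and 3 lower in IOP eyes, and between 0 and 2 higher and between 0 and 1 lower for 4xIOP. The 0 lower in control eyes came without any 1 of the 4 libraries compared. A lone library was assumed to vary like the others. For 4xIOP, 0 were called higher without 4xIOP replicate 1 and 1 without 4xIOP control replicate 1 or 4xIOP replicate 2. The comparisons of a single elevation and the interaction stayed at 0 throughout.

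Whether equal replicate numbers mark the 2 eyes of an animal is not stated. Deviations of same-numbered libraries correlated at -0.275, -0.53 and -0.29 between the control and IOP groups. With 2 libraries a group, these values cannot settle it. With a replicate block 15 members were called higher and 2 lower with age in control eyes, 15 and 2 in IOP eyes, 2 and 1 for 4xIOP, and 0 for a single elevation and the interaction. Col5a3 lost its call in IOP eyes (adjusted p = 0.0517). With the numbers crossed, an alternative chosen after seeing the data, the counts were 15 and 2, 16 and 2, and 2 and 1. Fitting only the 2 groups could not be run for the interaction and is the fit itself for 4xIOP. At 2 libraries a group, a missed threshold does not show that values were alike.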
